A study of Mus musculus with 96 samples.

Results

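Drd1, Drd2, Adora2a, Ppp1r1b, Rgs9, Tac1, Penk and Pde10a, 8 genes whose RNA is abundant in the medium spiny neurons of the striatum, were followed through mRNA-seq libraries of mouse cerebellum, cortex and hippocampus. The genes were named by their symbols as a gauge of tissue from outside the cortex and hippocampus. The rule for naming them used no measured values, but earlier results of these data were known when they were chosen. All 8 had a row among the 35486 genes of the deposited count table. The study sequenced 96 libraries from 38 male C57BL/6J mice and compared plasma from young mice with PBS, a saline vehicle, and old with young animals. Of these, 29 mice of a first experiment gave a library from each region, and 9 mice of a second experiment gave hippocampus alone. No striatum library was among the samples, so the level of the 8 genes in striatum itself was not measured here.

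The first experiment held 8 groups of mice. Mice labelled OPLTOPL, here called long plasma, were 19 months old and had 24 daily injections of young plasma (3 mice). Their controls, OPLTPBS or long PBS, had 24 daily injections of PBS at the same age (4 mice). Plasma mice (OPL) had 7 daily injections of young plasma at 22 months (3 mice) or 18 months (5 mice). PBS mice had 7 daily injections of PBS at 22 months (3 mice) or 18 months (4 mice). Naive mice had no injection and were 18 months (3 mice) or 2 months old (4 mice). The sample labels give 2 months for the young group, and the series text gives 3 months. The second experiment held 5 plasma and 4 PBS mice of 18 months with 7 injections each. All mice were wild type as far as the labels say, and each library came from 1 mouse. A second number in the sample titles has no stated meaning. It is shared by plasma replicates 10 and 13 and PBS replicate 11 at 18 months, by the 3 plasma mice and PBS replicate 21 at 22 months and by all mice of the second experiment, and elsewhere it cannot be told apart from the group.

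Medium spiny neurons are the main neurons of the striatum and use GABA as transmitter. Neurons of the direct pathway carry the dopamine receptor D1, encoded by Drd1, which raises cAMP, and release substance P, made from the precursor Tac1. Neurons of the indirect pathway carry the dopamine receptor D2, encoded by Drd2, which lowers cAMP, together with an adenosine receptor, encoded by Adora2a, and release enkephalin, made from Penk. Both kinds hold DARPP-32, encoded by Ppp1r1b, which inhibits protein phosphatase 1 when phosphorylated by protein kinase A, the phosphodiesterase Pde10a, which breaks down cAMP and cGMP, and Rgs9, which shortens G protein signals of the D2 receptor. The striatum lies directly under the cortex in the forebrain, and the cerebellum lies far behind it. Cortical interneurons and some deep-layer cortical neurons are known to transcribe several of these genes as well.

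The genes lie on separate parts of the genome. In the GENCODE M21 annotation of GRCm38, the receptor genes were Drd1 (ENSMUSG00000021478.6) at chr13:54051183-54055705 on the minus strand, Drd2 (ENSMUSG00000032259.8) at chr9:49340627-49408177 on the plus strand and Adora2a (ENSMUSG00000020178.6) at chr10:75316877-75334784 on the plus strand. The neuropeptide precursor genes were Tac1 (ENSMUSG00000061762.12) at chr6:7554879-7565834 on the plus strand and Penk (ENSMUSG00000045573.9) at chr4:4133531-4138819 on the minus strand. The signalling genes were Ppp1r1b (ENSMUSG00000061718.12) at chr11:98348404-98357796 on the plus strand, Rgs9 (ENSMUSG00000020599.13) at chr11:109225355-109298129 on the minus strand and Pde10a (ENSMUSG00000023868.17) at chr17:8525372-8986648 on the plus strand. Counts were summed over each gene, so no exon or transcript can be singled out.

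Promoter sequences are shown for 5 of the 8 genes because these genes varied together in the cortex. RefSeq promoters of GRCm38.p6, 250 bases before to 50 bases after a transcript start, were at hand for Tac1, Drd2, Rgs9, Drd1 and Pde10a, with 7 promoters in all, and 1 is printed per gene, 5′ to 3′ on the gene's own strand. Capitals mark the TATA box TATAAA, the cAMP response element core TGACG and the GC box GGGCGG on either strand.
Tac1 promoter, chr6:7554811-7555110, plus strand: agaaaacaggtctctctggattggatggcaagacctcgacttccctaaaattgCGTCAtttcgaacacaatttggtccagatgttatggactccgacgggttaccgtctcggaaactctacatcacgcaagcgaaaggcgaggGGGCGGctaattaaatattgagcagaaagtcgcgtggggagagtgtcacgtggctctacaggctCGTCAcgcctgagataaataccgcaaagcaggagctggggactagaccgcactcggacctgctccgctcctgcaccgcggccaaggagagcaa
Drd2 promoter, chr9:49340153-49340452, plus strand: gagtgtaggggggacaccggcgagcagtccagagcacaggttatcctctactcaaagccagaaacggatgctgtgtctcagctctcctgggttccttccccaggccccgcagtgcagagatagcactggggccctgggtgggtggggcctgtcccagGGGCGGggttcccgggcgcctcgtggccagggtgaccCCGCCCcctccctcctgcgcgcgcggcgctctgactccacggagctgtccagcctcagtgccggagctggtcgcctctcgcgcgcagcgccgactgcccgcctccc
Rgs9 promoter, chr11:109298132-109298431, minus strand: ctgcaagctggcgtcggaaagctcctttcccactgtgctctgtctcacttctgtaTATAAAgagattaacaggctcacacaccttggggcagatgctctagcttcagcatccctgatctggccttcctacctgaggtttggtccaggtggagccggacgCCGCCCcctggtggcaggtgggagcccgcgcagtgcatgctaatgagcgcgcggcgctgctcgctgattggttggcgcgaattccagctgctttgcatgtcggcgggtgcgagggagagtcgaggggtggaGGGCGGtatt
Drd1 promoter, chr13:54055609-54055908, minus strand: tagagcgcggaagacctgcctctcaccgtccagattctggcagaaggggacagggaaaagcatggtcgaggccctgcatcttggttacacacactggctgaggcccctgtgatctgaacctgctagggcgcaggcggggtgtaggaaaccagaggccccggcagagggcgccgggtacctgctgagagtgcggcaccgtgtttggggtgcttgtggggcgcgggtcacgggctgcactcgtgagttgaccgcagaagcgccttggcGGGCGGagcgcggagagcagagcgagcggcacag
Pde10a promoter, chr17:8801495-8801794, plus strand: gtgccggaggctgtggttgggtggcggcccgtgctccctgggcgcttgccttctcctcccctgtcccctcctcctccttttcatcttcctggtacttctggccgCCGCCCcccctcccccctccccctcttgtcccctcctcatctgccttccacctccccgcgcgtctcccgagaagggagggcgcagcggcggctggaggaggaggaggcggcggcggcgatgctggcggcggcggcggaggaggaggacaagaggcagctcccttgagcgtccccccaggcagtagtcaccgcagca
All 7 held at least 1 GC box, which 35.7% of the 32851 RefSeq promoters of this length held. Tac1 had 2 matches to TGACG, a core found in 20.8% of promoters, and no other of the 5 genes had one. Rgs9 alone held TATAAA, found in 13.6% of promoters. None of the 7 held the full cAMP response element TGACGTCA, found in 1.79% of promoters, and its TGACG core was counted by itself. The Drd2 promoter was 70.3% GC with 23 CpG dinucleotides and the printed Pde10a promoter 71.3% with 23, against medians of 52.7% and 7 over all promoters. These matches describe letters in the window and show no binding.

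Sequencing depth ranged over 851288 to 23768385 counts per library, with a median of 8889509. Levels are in CPM, the count of a gene per 1000000 counts of its library, with no prior count added. Defining markers were checked against the labelled regions. Prox1 of dentate granule cells had a median level of 78.8 CPM in hippocampus, 16.4 CPM in cortex and 68.2 CPM in cerebellum, so it set hippocampus apart from cortex but not from cerebellum. The median level of Gabra6, known from granule cells of the cerebellum, was 405 CPM in cerebellum and 0 CPM in both forebrain regions. In 7 libraries the score of the own-region neuron markers was low, by over 3 median absolute deviations from the median library of the region. In cortex these were PBS at 22 months replicate 15 and naive at 2 months replicate 14. In hippocampus they were long plasma replicate 23, long PBS replicate 24, PBS at 18 months replicate 11 and naive at 2 months replicates 14 and 20. Some results are given with and without these libraries. Where no value without them is given, they are included.

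The 8 genes were highest in cortex, and all of them had higher expression in cortex than in hippocampus. Drd1 was higher in cortex than in hippocampus in 29 of 29 mice, Ppp1r1b in 29, Adora2a in 28, Rgs9, Penk and Pde10a in 27 and Drd2 and Tac1 in 25. Drd1 had a lowest, median and highest level of 9.81, 30.4 and 77.1 CPM in cortex, 4.22, 7.73 and 34.6 CPM in hippocampus and 0, 0.460 and 1.57 CPM in cerebellum. Drd2 had 0.577, 18.1 and 68.2 CPM in cortex, 1.67, 2.75 and 15.1 CPM in hippocampus and 0, 1.58 and 5.90 CPM in cerebellum. Adora2a had 2.60, 29.8 and 93.7 CPM in cortex, 0.765, 2.74 and 23.2 CPM in hippocampus and 0, 2.32 and 4.19 CPM in cerebellum (29 libraries each). The receptor genes were thus near the floor in cerebellum, where Drd1 had no count in 7 libraries, and low in hippocampus, while their cortical range ran over more than an order of magnitude for Drd2 and Adora2a. In bulk samples fewer cells of a type and less RNA per cell cannot be told apart.

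The neuropeptide precursors split by region. Tac1 had 10.6, 23.8 and 74.0 CPM in cortex, 7.73, 11.7 and 45.4 CPM in hippocampus and 0, 2.57 and 9.23 CPM in cerebellum. Penk had 33.4, 139 and 524 CPM in cortex, 21.7, 33.8 and 317 CPM in hippocampus and 79.6, 111 and 130 CPM in cerebellum. Penk was therefore higher in cerebellum than in hippocampus in all but 2 of 29 mice, whereas Tac1 was higher in hippocampus in all 29.

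Among the signalling genes, Ppp1r1b and Pde10a were also well expressed in cerebellum. Ppp1r1b had 77.3, 220 and 521 CPM in cortex, 40.1, 50.4 and 175 CPM in hippocampus and 157, 196 and 237 CPM in cerebellum. Pde10a had 50.7, 114 and 291 CPM in cortex, 35.5, 50.8 and 70.0 CPM in hippocampus and 56.9, 71.7 and 109 CPM in cerebellum. Rgs9 had 10.3, 37.5 and 120 CPM in cortex, 7.83, 11.0 and 24.1 CPM in hippocampus and 1.28, 4.04 and 7.98 CPM in cerebellum. No mouse had more Ppp1r1b or Pde10a in hippocampus than in cerebellum. The cerebellum levels of Ppp1r1b, Penk and Pde10a go against reading these genes as absent outside the striatum, and the name striatal is used here for the set as it was chosen.

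**Figure D1:**
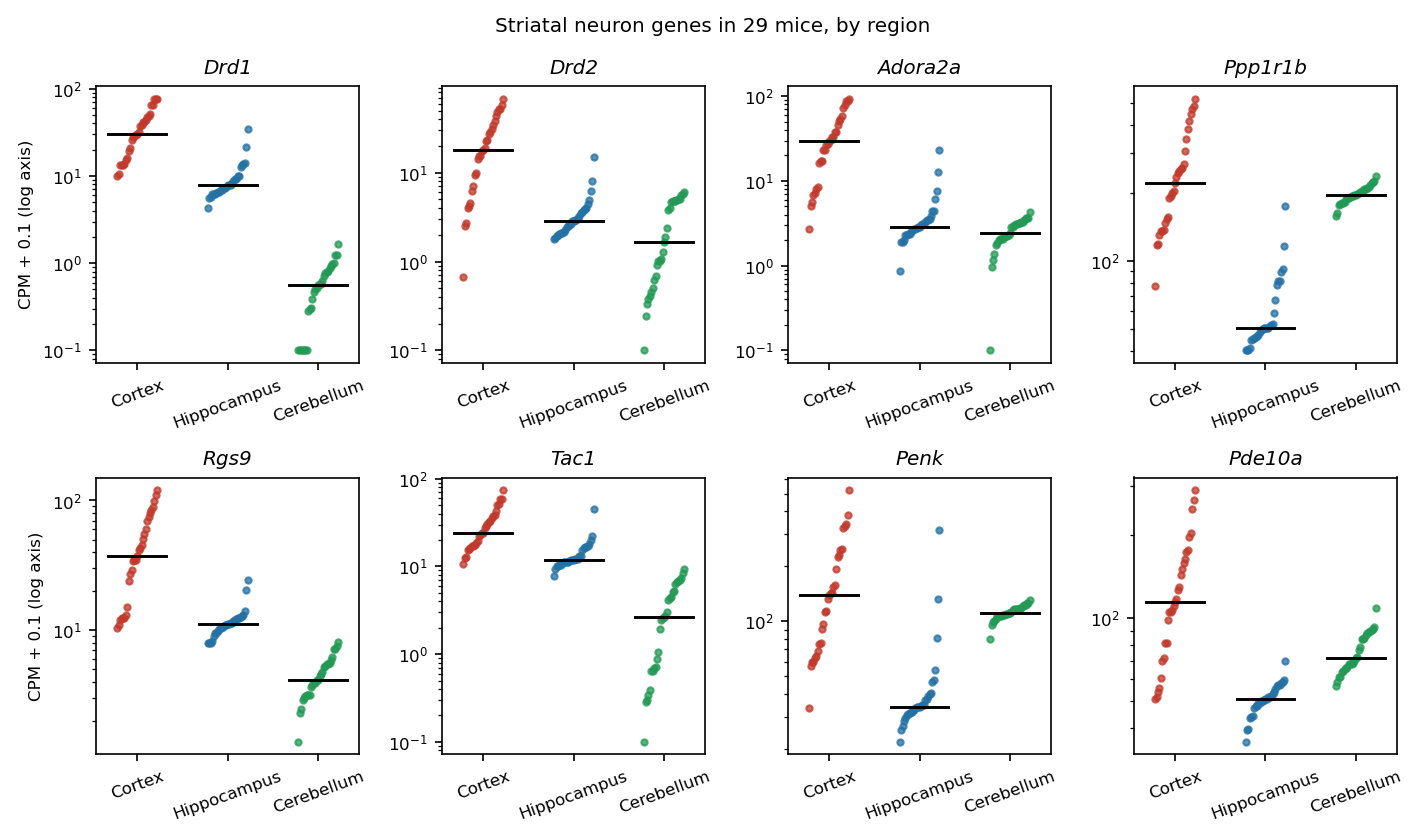
Level of each of the 8 genes (CPM + 0.1, log axis) in the cortex, hippocampus and cerebellum of the 29 mice of the first experiment, with 1 point per library and a bar at the median. In cortex the ratio of the highest to the lowest library was widest for Drd2 (0.577 to 68.2 CPM) and Adora2a (2.60 to 93.7 CPM), and Ppp1r1b, Penk and Pde10a sit in a narrow band in cerebellum (Ppp1r1b 157 to 237 CPM).

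In edgeR's quasi-likelihood test with Benjamini-Hochberg adjustment over all genes and an adjusted p threshold of 0.05, all 8 genes were higher in cortex than in hippocampus. The test called 60.3% of all genes in this comparison, 30.3% as higher and 29.9% as lower in cortex, so a call alone says little here. The difference was largest for Adora2a (log2 fold change 3.02 ± 0.26 SE) and Drd2 (2.65 ± 0.29) and smallest for Tac1 (1.06 ± 0.17, adjusted p = 1.30e-07). Ppp1r1b (1.97 ± 0.13), Rgs9 (1.87 ± 0.17), Drd1 (1.84 ± 0.17), Penk (1.78 ± 0.19) and Pde10a (1.31 ± 0.12) lay between. The median over all genes was close to no change (log2 fold change -0.0016).

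All 8 genes were also higher in cortex than in cerebellum, where 83.3% of all genes were called, 40.3% as higher and 43.0% as lower in cortex. Drd1 (log2 fold change 6.11 ± 0.28), Adora2a (3.74 ± 0.29), Rgs9 (3.46 ± 0.21), Drd2 (3.38 ± 0.33) and Tac1 (3.38 ± 0.22) differed most. Ppp1r1b (0.40 ± 0.12, edgeR adjusted p = 0.00225), Penk (0.58 ± 0.18, adjusted p = 0.00272) and Pde10a (0.91 ± 0.12) differed by less than 1 log2 unit, and Ppp1r1b was higher in cortex in only 15 of 29 mice.

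Between hippocampus and cerebellum the genes went in both directions. Drd1 (log2 fold change 4.27 ± 0.31), Tac1 (2.32 ± 0.23) and Rgs9 (1.60 ± 0.23) were higher in hippocampus, and Ppp1r1b (-1.58 ± 0.13), Penk (-1.20 ± 0.19) and Pde10a (-0.40 ± 0.12, edgeR adjusted p = 0.00238) were lower. The test called 84.1% of all genes, 40.9% as higher and 43.2% as lower in hippocampus. Adora2a passed narrowly (0.72 ± 0.35, edgeR adjusted p = 0.0484) and lost its call with the mouse as a replicate block (0.56 ± 0.29, adjusted p = 0.0689) and without the libraries of low own-region markers (0.35, adjusted p = 0.388). Drd2 did not pass (0.73 ± 0.40, adjusted p = 0.0886).

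Other striatal genes ran the same way between cortex and hippocampus. Of 30 further striatal genes, 29 were tested, and 24 were called higher and 2 lower in cortex, with a median log2 fold change of 1.23. Of all genes, 30.3% were called higher and 29.9% lower. The largest differences were those of Sh3rf2 (4.03 ± 0.43), Isl1 (3.77 ± 0.56), a transcription factor of striatal neurons, Six3 (3.46 ± 0.64), a forebrain transcription factor, and Scn4b (3.36 ± 0.12), a sodium channel subunit. The 2 lower genes were Bcl11b (-0.59 ± 0.10), a transcription factor that is outside the rule for named genes and was chosen after its values were seen, and Gng7 (-0.31 ± 0.10), a G protein subunit. Of 41 genes of dopamine, adenosine and cAMP signalling, 40 were tested, with 26 called higher and 11 lower in cortex and a median of 0.49. That list includes the 8 genes themselves, all of them among the 26. Drd4, another dopamine receptor, was higher in cortex (3.40 ± 0.36) and Drd5, the second receptor of the D1 class, was lower (-3.03 ± 0.21).

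Per kilobase of exon, which allows levels of genes to be compared, Penk (median 85.2 CPM per kb) and Ppp1r1b (75.2) stood far above the other 6 genes in cortex. Adora2a (9.73), Pde10a (8.87), Drd1 (8.38), Drd2 (7.11), Tac1 (7.00) and Rgs9 (5.86) were close to each other. In hippocampus Penk (20.7 CPM per kb) and Ppp1r1b (17.2) again led, and Drd2 (1.08) and Adora2a (0.895) were lowest. In cerebellum Penk (67.9 CPM per kb) and Ppp1r1b (66.8) were nearly as high as in cortex, and Drd1 (0.127) was lowest.

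The spread between libraries of 1 group was much wider for these genes than for most genes of the cortex. The biological coefficient of variation is edgeR's estimate of the relative spread between libraries beyond counting error. In cortex it was 0.761 (Drd2), 0.676 (Adora2a), 0.561 (Rgs9), 0.511 (Penk), 0.470 (Drd1), 0.423 (Pde10a), 0.394 (Tac1) and 0.373 (Ppp1r1b). These were between 3.79 (Tac1) and 6.97 (Drd2) times the trend over all genes at the same mean level, where the trend itself lay between 0.0880 and 0.109. For Tac1, the least extreme, 99.7% of the tested genes had a lower value. In hippocampus the ratios to the trend were lower and uneven, at 4.37 for Penk, 2.80 for Ppp1r1b, 2.49 for Adora2a, 2.07 for Drd1, 1.87 for Drd2, 1.77 for Tac1, 1.11 for Rgs9 and 1.10 for Pde10a. Without the hippocampus libraries of low own-region markers (24 left) the ratio was 2.79 for Penk, 2.52 for Ppp1r1b, 1.68 for Adora2a and 1.07 for Tac1. In cerebellum Tac1 (5.08) and Drd2 (4.18) were far above the trend, Pde10a was at 2.08 times the trend, and Rgs9 (1.23), Ppp1r1b (1.21), Penk (0.849) and Adora2a (0.847) were near it. Drd1 had too few counts there to be fitted.

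The cortex libraries kept nearly the same order for all 8 genes. Only 6 of the 29 libraries were ever among the 5 highest of a gene, and 4 were among them for all 8 genes. These were plasma at 18 months replicates 10 and 7, naive at 18 months replicate 6 and PBS at 18 months replicate 2. Plasma at 22 months replicate 22 was among the 5 lowest for all 8 genes, with 9.81 CPM of Drd1, 2.60 CPM of Adora2a and 33.4 CPM of Penk. The summed level of the 8 genes ran over 207 CPM in that library to 1537 CPM in naive at 18 months replicate 6. The 5 libraries of highest mean rank belonged to 4 groups. Plasma and PBS mice of 18 months and long PBS mice had libraries both among the 5 highest and among the 5 lowest of a gene, and the other groups did not.

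Adora2a shows the pattern in every cortex library. It had 16.0, 7.90 and 5.51 CPM in long plasma mice and 58.1, 33.1, 6.69 and 5.02 CPM in long PBS mice. It had 23.2, 22.9 and 2.60 CPM in plasma mice of 22 months and 87.6, 46.0 and 29.8 CPM in PBS mice of 22 months. In plasma mice of 18 months the levels were 38.0, 30.4, 72.4, 93.7 and 7.16 CPM, and in PBS mice of 18 months they were 77.8, 17.0, 8.39 and 17.1 CPM. Within each of these groups except PBS at 22 months and long plasma, the highest mouse had several times the level of the lowest. Naive mice had 26.4, 87.9 and 37.3 CPM at 18 months and 51.2, 33.1, 54.4 and 27.2 CPM at 2 months. The young naive mice were the most even of the groups of 4 or more.

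**Figure D2:**
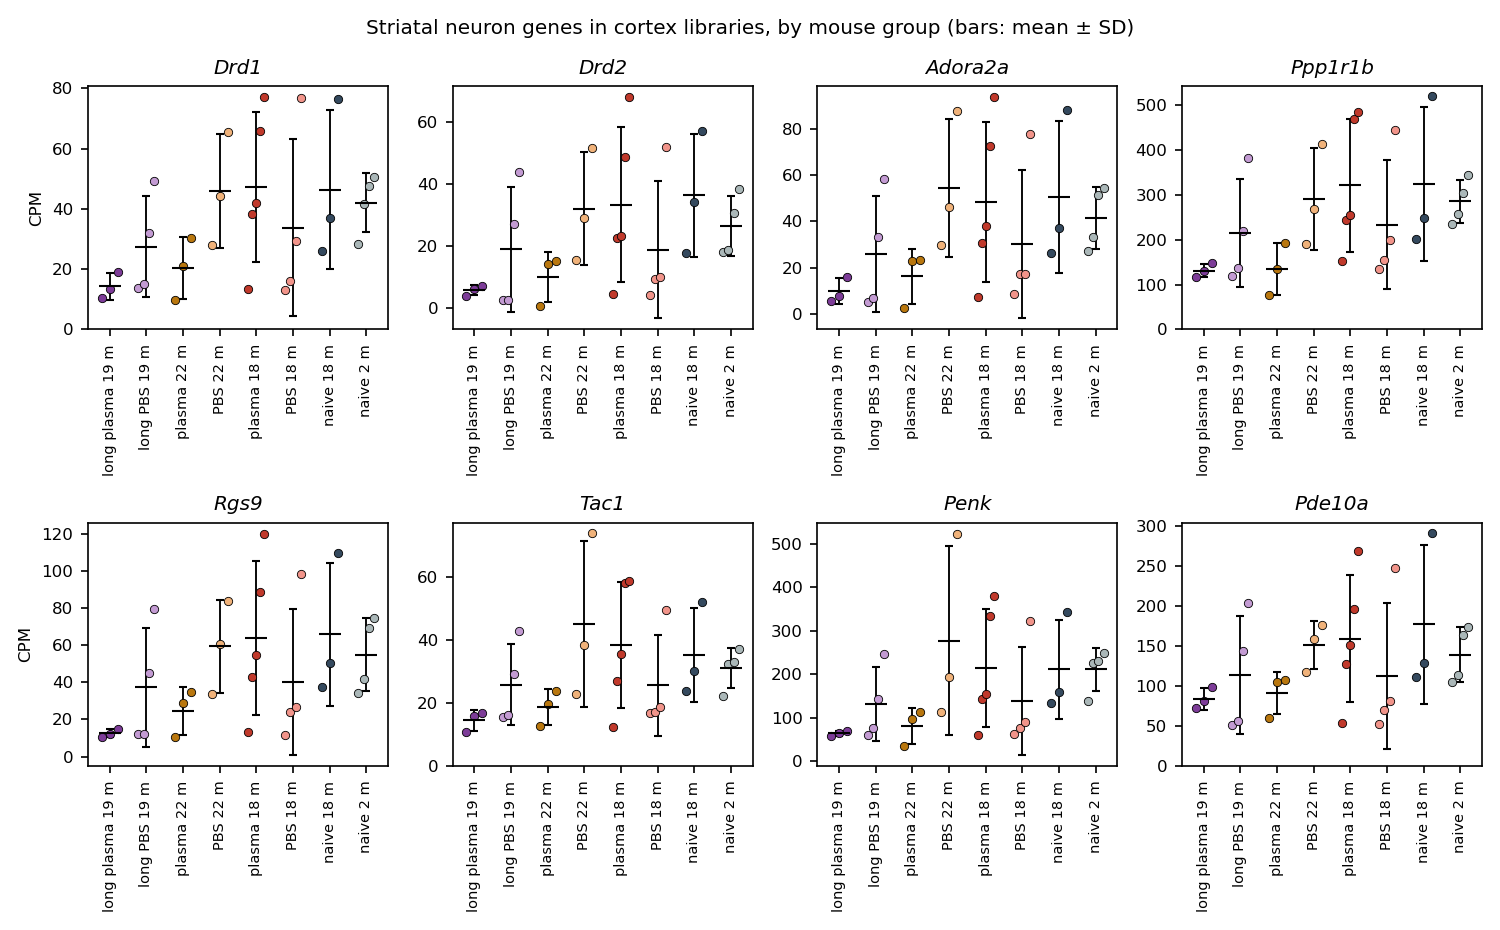
Level of the 8 genes (CPM, linear axis) in each cortex library by mouse group, with 1 point per mouse and bars for the group mean ± SD. The same mice are high or low in each panel, and long plasma has the lowest group mean for all 8 genes (Adora2a 9.79 CPM) while its mice overlap those of long PBS.

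Deviations from the group mean were correlated for every pair of the 8 genes across the 29 cortex libraries. Pearson's r of log2 CPM (prior count 2) was 0.854 for Drd2 with Tac1, the lowest of 28 pairs, and 0.982 for Drd2 with Adora2a, the highest, with a median of 0.942. Spearman's rho ran over 0.897 to 0.985 with a median of 0.940. All 28 pairs passed Benjamini-Hochberg adjustment over the 28, and the smallest unadjusted permutation p, 1e-05, is the smallest that 100000 resamples within groups can give. Leaving out for each pair the 2 libraries farthest from the median of the first gene gave a median r of 0.924. Leaving out the 2 cortex libraries of low own-region markers gave 0.949, and the 27 libraries of at least 2500000 counts gave 0.943. Pairs across the direct pathway (Drd1, Tac1) and the indirect pathway (Drd2, Adora2a, Penk) ran over 0.854 to 0.964 (Tac1 with Penk). Pairs within a pathway ran over 0.903 (Drd2 with Penk) to 0.982, so the ranges overlapped.

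On a linear scale the other 7 genes followed straight lines against Adora2a in cortex, which is a description over libraries with no test. The fitted line for Rgs9 had a slope of 1.16 CPM per CPM of Adora2a and an intercept of 5.10 CPM (R² 0.969), and that for Drd2 had a slope of 0.682 and an intercept of -0.771 CPM (R² 0.969). Drd1 had a slope of 0.756 and an intercept of 8.84 CPM (R² 0.959), and Tac1 had 0.568 and 9.66 CPM (R² 0.924). The intercept was 92.0 CPM for Ppp1r1b (slope 4.42, R² 0.943), 49.4 CPM for Pde10a (slope 2.28, R² 0.909) and 20.9 CPM for Penk (slope 4.18, R² 0.917). The intercept of Pde10a was close to its hippocampus median of 50.8 CPM, that of Ppp1r1b was above its hippocampus median of 50.4 CPM, and that of Drd2 was near 0.

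**Figure D3:**
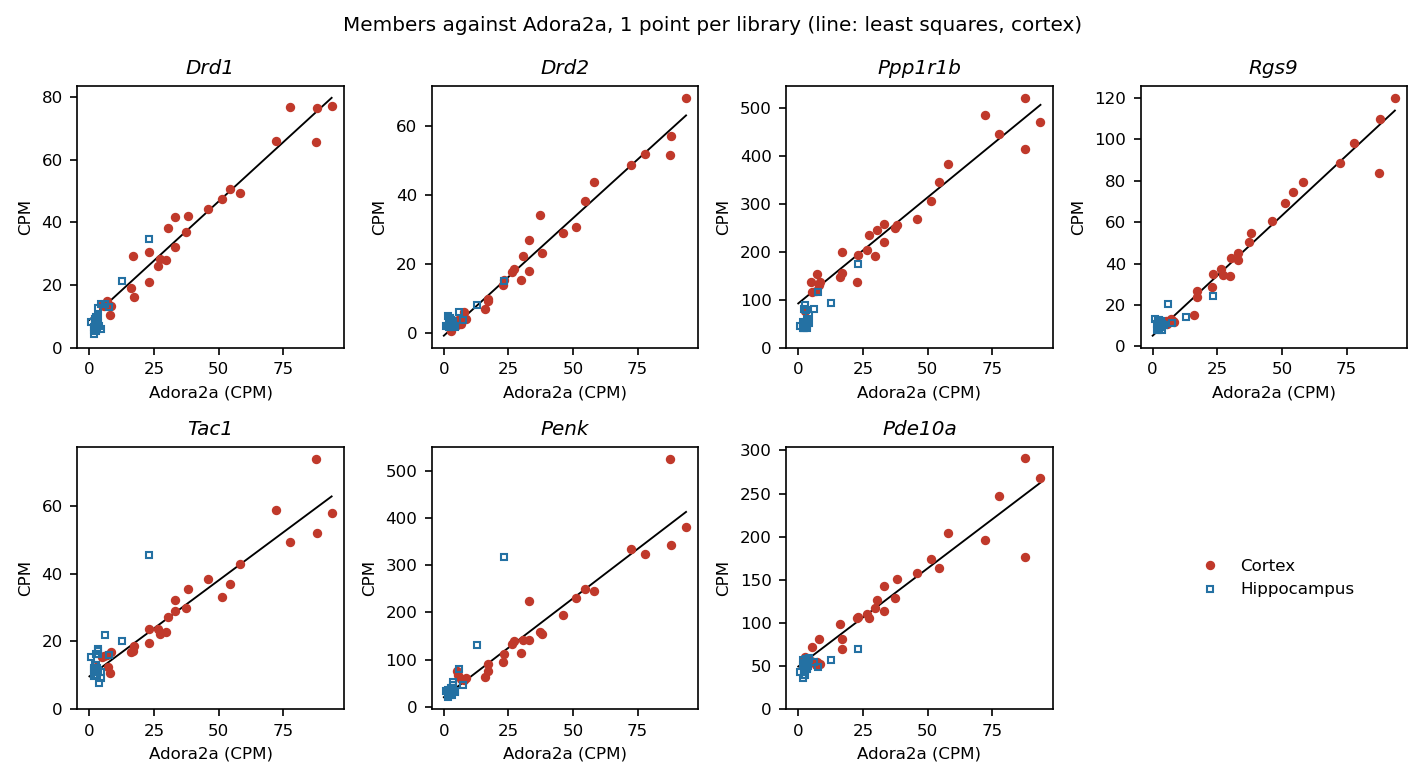
Level of each of the other 7 genes against Adora2a (both in CPM, linear axes), with filled circles for the 29 cortex libraries, open squares for the 29 hippocampus libraries of the first experiment and a least-squares line through the cortex libraries. Cortex points lie close to the lines (R² 0.909 to 0.969), and the line for Ppp1r1b meets the vertical axis at 92.0 CPM while that for Drd2 meets it near 0 (-0.771 CPM).

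The lowest cortex libraries reached down to hippocampus levels. The lowest cortex level was 0.210 times the hippocampus median for Drd2, 0.906 times for Tac1, 0.939 times for Rgs9, 0.948 times for Adora2a, 0.989 times for Penk, 0.997 times for Pde10a, 1.27 times for Drd1 and 1.53 times for Ppp1r1b. The number of cortex libraries at or below the highest hippocampus library was 6 for Pde10a, 9 for Rgs9, 10 for Ppp1r1b, 11 for Adora2a and Drd2, 16 for Drd1 and 24 for Tac1 and Penk. The highest hippocampus library was long PBS replicate 24 for all 8 genes. Without the hippocampus libraries of low own-region markers (24 left), that one included, the number was 1 for Ppp1r1b, 4 for Pde10a, 7 for Rgs9 and Adora2a, 8 for Drd2, 10 for Drd1, 11 for Tac1 and 13 for Penk.

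Outside the 8 genes, the genes most like their mean deviation in cortex were mostly known from striatal neurons. By Pearson's r over 29 libraries and 16834 genes of at least 1 CPM on average, the 10 leading genes included Adcy5 (0.972), the adenylyl cyclase of striatal dopamine signalling, 1700003D09Rik (0.969), Gpr6 (0.966), an orphan receptor, Rxrg (0.965), a retinoid receptor, Pde1b (0.964), a phosphodiesterase, Gng7 (0.964), Lrrc10b (0.958), Rasgrp2 (0.953) and A830012C17Rik (0.949). Gpr6 had 1.15, 7.15 and 25.4 CPM as lowest, median and highest in cortex, and Lrrc10b had 0.505, 15.9 and 54.7 CPM. Of the 10, 6 were on the list of further striatal genes, and 24 of the 28 list genes compared had an r over 0.5, with a median of 0.902. The exceptions were Arpp19 (0.0126), Sp9 (0.440), Foxp1 (0.448) and Chrm4 (0.484), which were chosen after their values were seen.

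Markers of other cell types moved with the 8 genes in cortex to different degrees. Across the 29 libraries, deviations of the mean of the 8 genes had a Pearson's r of 0.979 with the further striatal genes, 0.916 with 5 markers of striatal cholinergic interneurons, 0.699 with the signalling genes, 0.473 with choroid plexus, 0.435 with hippocampal neurons, 0.165 with thalamic neurons, -0.0209 with forebrain interneurons and -0.520 with cortical neurons. These values come from shared libraries and are given with no test. Chat, the enzyme that makes acetylcholine, had 0.443 to 11.6 CPM in cortex (median 2.45), and Lhx8, a transcription factor of cholinergic neurons, had 0 to 6.03 CPM. Chat was at 0 in 19 of 29 hippocampus libraries and 16 of 29 cerebellum libraries. Whether tissue carried over at dissection set the cortical levels was not tested.

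In hippocampus the genes moved together less tightly, and mostly through a few libraries. Of 28 pairs, 20 passed the permutation test of Pearson's r after Benjamini-Hochberg adjustment and 9 that of Spearman's rho, with a median r of 0.663 and a median rho of 0.464 over 29 libraries. Without the 2 farthest libraries of each pair the median r was 0.417, and without the libraries of low own-region markers it was 0.275 (24 libraries). Long PBS replicate 24 had the highest level of every gene, with 34.6 CPM of Drd1, 15.1 CPM of Drd2, 23.2 CPM of Adora2a, 175 CPM of Ppp1r1b, 24.1 CPM of Rgs9, 45.4 CPM of Tac1, 317 CPM of Penk and 70.0 CPM of Pde10a. In that library Prox1 was at 22.2 CPM. PBS at 18 months replicate 5 followed, with 21.1 CPM of Drd1, 12.7 CPM of Adora2a and 132 CPM of Penk. Its own-region marker score was at -2.91 median absolute deviations, against -9.07 for long PBS replicate 24. That is just short of the cut of 3, so it was not left out with the libraries of low own-region markers. Both libraries held Chat counts (2.56 and 1.08 CPM). In the 9 hippocampus libraries of the second experiment, Drd1 was at 5.39 to 9.59 CPM, Adora2a at 0.933 to 3.98 CPM and Penk at 20.8 to 50.5 CPM. Drd2 was less even there, at 1.68 to 10.6 CPM with a median of 2.97 CPM, and its highest library was plasma replicate 76.

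Of the 10 genes most like the 8 in hippocampus, 1 was also among the 10 of cortex, A830012C17Rik. By Pearson's r over 16851 genes, A830012C17Rik (0.920), Lhfpl3 (0.916), Rprm (0.905) and Gnal (0.861), a G protein subunit of striatal dopamine signalling, led. Dner (0.856), Mrap2 (0.851), Pdzrn4 (0.850), Cdh22 (0.842), Tmem132e (0.840) and Lypd1 (0.835) followed. Only Gnal among the 10 was on the list of further striatal genes, of which 14 of 25 had an r over 0.5, with a median of 0.604. Foxp1 (-0.809), Strip2 (-0.149), Gng7 (-0.133) and Actn2 (-0.00508) of that list had a negative r, and they were named after their values were seen. The list as a whole had an r of 0.907 with the mean of the 8 genes, forebrain interneurons 0.608, choroid plexus -0.105, cortical neurons -0.0730 and hippocampal neurons -0.601. These values are over all 29 libraries, those of low own-region markers included.

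No relation between the cortex and the hippocampus of the same mouse was detected. For the 8 genes, Pearson's r of the deviations in cortex and hippocampus of the same 29 mice lay between -0.158 and 0.299. None of the 8 tests passed, with permutation p adjusted over the 8 of 0.743 to 0.982.

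In cerebellum the genes did not form 1 set: of the 21 pairs of 7 genes, 2 passed by Pearson's r and 0 by Spearman's rho. The pairs that passed were Drd2 with Tac1, which went together, and Ppp1r1b with Tac1, which went apart. Drd2 and Tac1 had higher medians where Tcf7l2, the first marker of the thalamic list and also known from midbrain neurons, was high. Tcf7l2 was at 63.2 to 94.0 CPM in 14 cerebellum libraries and at 23.9 to 34.0 CPM in the other 15, with none in between. Drd2 was at 1.58 to 5.90 CPM (median 4.70 CPM) in the 14 libraries and at 0 to 1.80 CPM (median 0.513 CPM) in the 15. Tac1 was at 0 to 9.23 CPM (median 5.66 CPM) in the 14 and at 0.181 to 2.91 CPM (median 0.613 CPM) in the 15. The ranges overlapped for both genes, and plasma at 22 months replicate 16 had 69.6 CPM of Tcf7l2 and no count of Tac1. Because the libraries fall into separate ranges of Tcf7l2, no pooled r is given for these pairs, and the relation within each range was not tested.

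**Figure D4:**
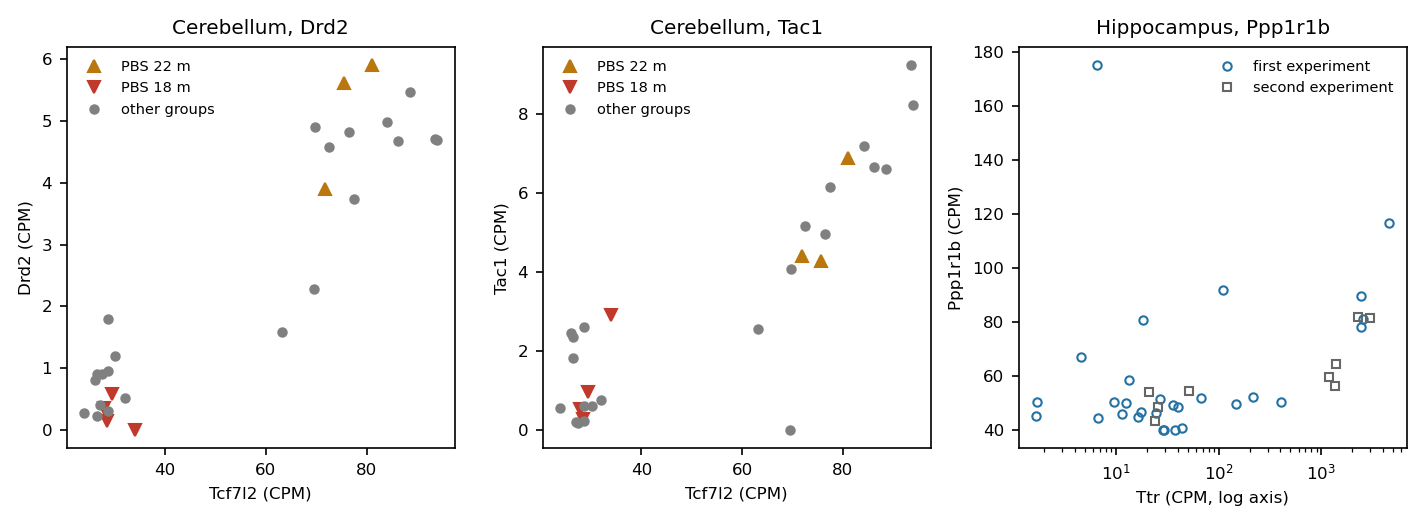
Level of Drd2 and of Tac1 against Tcf7l2 in the 29 cerebellum libraries (CPM, linear axes), and of Ppp1r1b against Ttr, a choroid plexus gene, in 38 hippocampus libraries (CPM, log horizontal axis). In cerebellum the 3 PBS libraries of 22 months lie at high Tcf7l2 and the 4 of 18 months at low Tcf7l2, and in hippocampus the 9 libraries of 1176 to 4609 CPM of Ttr hold 56.5 to 117 CPM of Ppp1r1b.

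Plasma against PBS was the main question of the study, and none of the 8 genes passed edgeR's quasi-likelihood test at an adjusted p of 0.05 in any plasma comparison. Of all genes, 0% were called in each of the plasma comparisons. The 20 comparisons within a region were run in 309 alternative settings, DESeq2 and limma-voom among them. None of the 8 was called in 307 settings, and the other 2 settings concern the cerebellum. A gene with no adjusted p counted as not called, such as Drd1 in cerebellum, where it did not pass the filter. The settings include the further striatal genes as a covariate, which removes whatever group difference they share with the 8. In cortex all 8 genes were nevertheless lower on average in plasma mice than in PBS mice at 22 months, with log2 fold changes of -1.83 to -0.74 and a median of -1.31. At an unadjusted p under 0.05 there were 5 of the 8 genes and 1059 of 18769 genes, and the smallest adjusted p of the 8 was 0.846.

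Penk, the enkephalin precursor, had 113, 96.1 and 33.4 CPM in plasma mice of 22 months, against 524, 194 and 114 CPM in PBS mice of 22 months (log2 fold change -1.79 ± 0.64, edgeR adjusted p = 0.846). Tac1 had 19.5, 23.8 and 12.6 CPM in plasma mice, against 74.0, 38.4 and 22.7 CPM in PBS mice (-1.32 ± 0.48). Drd1 had 30.4, 21.0 and 9.81 CPM in plasma mice, against 65.5, 44.2 and 27.9 CPM in PBS mice (-1.18 ± 0.56). The groups did not overlap for Penk, by a narrow margin, and overlapped for Tac1 and Drd1. Drd2 had 15.2, 14.0 and 0.577 CPM in plasma mice, against 51.6, 28.9 and 15.5 CPM in PBS mice. Groups also did not overlap for Drd2, Adora2a and Pde10a, which makes 4 of 8 genes, while 10.3% of all genes did not overlap in this comparison and 5.16% were lower without overlap. Further striatal genes were lower in 29 of 29 tested, none of them called, with a median log2 fold change of -0.74, and the 5 cholinergic markers had a median of -2.97. The 8 genes and these lists varied together across the cortex libraries, so such counts of genes are not independent.

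The markers of other cells were unequal in these 6 libraries. The summed cholinergic list was 1.59 to 4.61 CPM in plasma mice and 7.62 to 47.0 CPM in PBS mice, with Lhx8 at 0 in all 3 plasma libraries. The summed list of cortical neuron markers was 2439 to 2569 CPM in plasma mice and 1973 to 2597 CPM in PBS mice, with PBS replicate 15 the library of low own-region markers. That library was also the highest PBS mouse for every one of the 8 genes. In these 6 libraries the second number in the titles moved with the level as well, through PBS replicate 21 alone. PBS replicate 21, which shares that number with the 3 plasma mice, had a summed level of the 8 genes of 551 CPM, next to 536, 447 and 207 CPM in the plasma mice, and the other PBS mice had 1476 and 839 CPM. The part of that number in the result was not tested. Without the 2 cortex libraries of low own-region markers the changes of the 8 genes lay between -1.32 (Adora2a) and -0.62 (Pde10a). With the level of the further striatal genes as a covariate they lay between -0.18 and 0.45 with a median of 0.09, a fit that removes whatever group difference the 2 lists share.

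In the long treatment the 8 genes were lower on average in long plasma cortex than in long PBS cortex, with log2 fold changes of -1.71 to -0.42 and a median of -1.03. None of the 8 was called by edgeR or had an unadjusted p under 0.05, which 660 of 18769 genes had. Penk had 64.2, 57.0 and 68.8 CPM in long plasma mice, against 246, 143, 59.7 and 75.3 CPM in long PBS mice. Drd2 had 7.06, 6.04 and 3.90 CPM in long plasma mice, against 43.8, 27.0, 2.64 and 2.43 CPM in long PBS mice. The groups overlapped for all 8 genes, while 6.89% of all genes did not overlap, since the 2 lower long PBS mice were level with the plasma mice. Long plasma had the lowest mean of the 8 cortex groups for every gene (Drd1 14.3 ± 4.36 CPM SD, n = 3), but each pair of neighbouring groups in the order of means overlapped. With the further striatal covariate the median of the 8 changes was -0.03.

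At 18 months the direction was the other way. All 8 genes were higher on average in plasma cortex than in PBS cortex, by log2 fold changes of 0.35 to 0.63 with a median of 0.50, none of them called by edgeR and none with an unadjusted p under 0.05, which 762 genes had. Drd1 had 41.9, 38.2, 65.9, 77.1 and 13.4 CPM in plasma mice, against 76.6, 29.3, 13.2 and 16.1 CPM in PBS mice. Penk had 154, 143, 334, 381 and 59.6 CPM in plasma mice, against 323, 90.3, 62.4 and 75.7 CPM in PBS mice. The groups overlapped for all 8 genes (1.48% of all genes did not), and PBS replicate 2 alone was in the range of the high plasma mice. Further striatal genes were higher in 24 of 29 with a median of 0.21, and 10 of 13 cortical markers were lower. With the covariate the median of the 8 changes was 0.01.

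**Figure D5:**
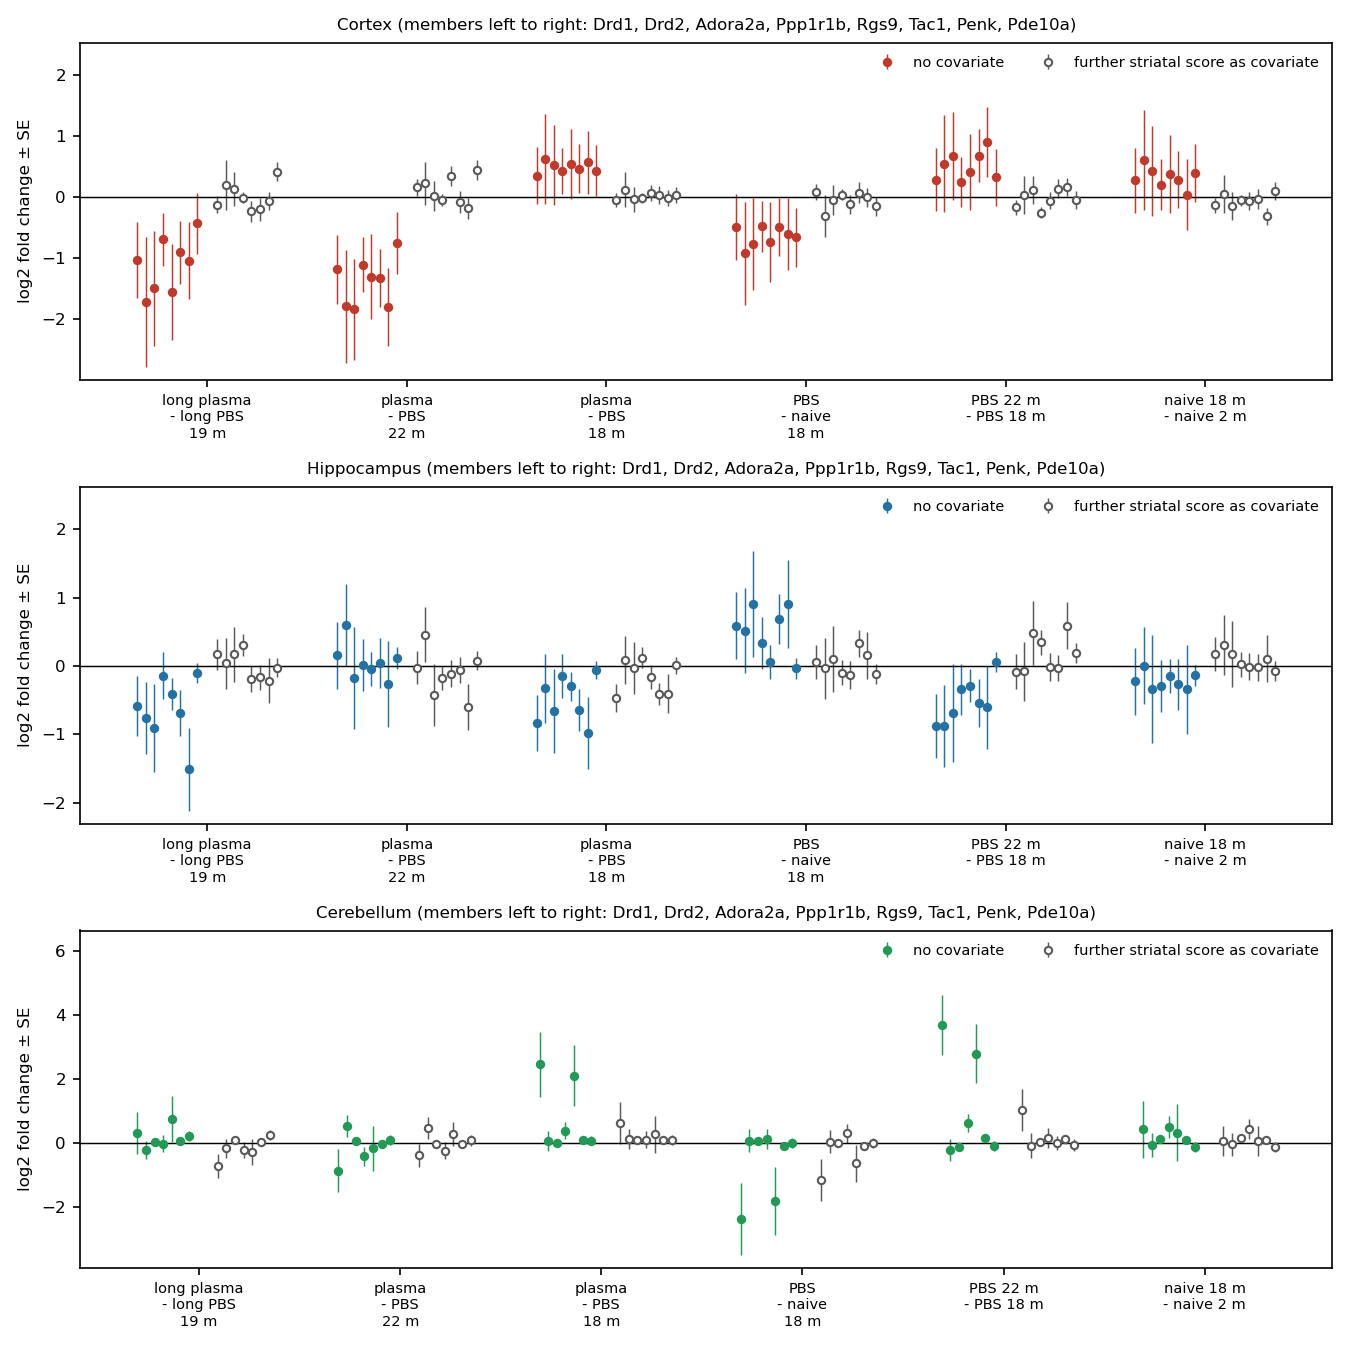
Log2 fold change ± SE of each gene in the 6 comparisons within cortex, hippocampus and cerebellum of the first experiment, as filled points without a covariate and open points with the further striatal level as a covariate. In cortex all filled points of a comparison lie on the same side of 0 (median -1.31 for plasma against PBS at 22 months and 0.50 at 18 months), and with the covariate the medians lie near 0 (0.09 and 0.01).

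In the age and injection comparisons of cortex none of the 8 genes was called by edgeR. In naive mice of 18 months the 8 genes were higher than in naive mice of 2 months by 0.04 to 0.61 (log2), with a median of 0.34, in a comparison that called 0.112% of all genes. In PBS mice of 22 months they were higher than in PBS mice of 18 months by 0.26 to 0.91 with a median of 0.49, where 0.00533% of all genes were called. In PBS mice of 18 months they were lower than in naive mice of 18 months, by log2 fold changes of -0.92 to -0.48 with a median of -0.63, where 0% of all genes were called. The groups overlapped for all 8 genes in each of these 3 comparisons, while 6.34% of all genes did not overlap with age in naive mice, 9.49% with age in PBS mice and 4.91% for PBS against naive. These 3 comparisons share mice with each other and with the plasma comparisons at 18 and 22 months.

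In hippocampus the change of Penk in the long comparison turned on 1 library. Penk had 47.6, 30.5 and 29.3 CPM in long plasma mice, against 317, 25.2, 26.4 and 40.1 CPM in long PBS mice (log2 fold change -1.51 ± 0.60, 0% of all genes called by edgeR and 706 at an unadjusted p under 0.05). Without long PBS replicate 24 the change of Penk was 0.24 ± 0.37, and the other genes are not given without it. Long plasma replicate 23, like long PBS replicate 24, is a library of low own-region markers. The 8 changes lay between -1.51 and -0.10 with a median of -0.64, and with the further striatal covariate between -0.22 and 0.30 with a median of 0.01. At 22 months the changes for plasma against PBS lay between -0.26 and 0.60 with a median of 0.03.

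At 18 months, 2 experiments measured plasma against PBS in hippocampus. Drd1 had 7.82, 4.22, 9.11, 6.04 and 6.04 CPM in plasma mice of the first experiment, against 8.16, 21.1, 7.73 and 12.5 CPM in PBS mice. In the second it had 6.90, 9.59, 5.39, 6.19 and 6.53 CPM in plasma mice, against 8.77, 8.03, 7.82 and 8.80 CPM in PBS mice. The groups overlapped in both experiments through 1 plasma mouse or more. In a joint edgeR fit that allowed for the experiment, Drd1 averaged lower in the 10 plasma mice than in the 8 PBS mice (log2 fold change -0.54 ± 0.18, edgeR adjusted p = 0.316), which did not pass. Penk had changes of opposite sign in the experiments (-0.98 in the first and 0.47 in the second), a difference that was not tested, with 34.4, 21.7, 34.6, 31.8 and 31.5 CPM in plasma mice and 33.7, 132, 38.9 and 46.5 CPM in PBS mice of the first. In the second it had 34.1, 26.9, 37.3, 35.6 and 50.5 CPM in plasma mice and 31.6, 20.8, 30.8 and 25.9 CPM in PBS mice (0.47 ± 0.16, edgeR adjusted p = 0.602). Of all genes, 0% were called in the first experiment, in the second and in both together. Tac1 was the gene without overlap in the first experiment, with 9.12 to 13.0 CPM in plasma mice and 15.3 to 20.1 CPM in PBS mice (-0.65 ± 0.31), where 1.20% of all genes did not overlap. An unadjusted p under 0.05 was reached by 440 genes in the first experiment, by 1363 in the second and by 1654 in both together. All 8 genes were lower on average in plasma mice of the first experiment, with changes of -0.98 to -0.06 and a median of -0.49, and in the second the changes lay between -0.24 and 0.47 with a median of 0.03. Markers of other cells differed too, with none called. Of 10 choroid plexus genes, 10 were higher on average in plasma mice in both experiments, with a median log2 fold change of 2.28 in the first and 0.74 in the second. In the first experiment Ttr, the first gene of that list, was high in plasma replicate 7 alone, at 2444 CPM. It was at 9.57 to 44.0 CPM in the other plasma mice and at 13.5 to 111 CPM in PBS mice. The summed level of the 10 choroid plexus genes was 148 to 4228 CPM in plasma mice and 153 to 327 CPM in PBS mice of the first experiment. In the second it was 211 to 4451 CPM in plasma mice and 178 to 4357 CPM in PBS mice. Of 13 hippocampal neuron markers, 11 were higher in plasma mice of the first experiment (median 0.36) and 10 in the second (median 0.12). The part of these markers in the result was not tested.

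Hippocampus of naive mice of 18 months differed from that of 2 months by log2 fold changes of -0.34 to 0.0015 over the 8 genes, none called, where 0.0719% of all genes were called. PBS mice of 22 months had changes of -0.88 to 0.05 against PBS mice of 18 months, and PBS mice of 18 months had -0.04 to 0.91 against naive mice of 18 months, with 0% of all genes called in both. Groups did not overlap for Drd1 between PBS mice of 22 and 18 months, as for 10.4% of all genes, and for Tac1 between PBS and naive mice of 18 months, as for 6.94%. PBS at 18 months replicate 5, the library next to the highest for Drd1, Adora2a and Penk, is in both comparisons.

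The largest fold changes in cerebellum over its 6 comparisons were those of Drd2 and Tac1 between PBS mice of 22 and 18 months, and neither passed. Drd2 had 3.90, 5.90 and 5.61 CPM in PBS mice of 22 months, against 0, 0.145, 0.360 and 0.581 CPM in PBS mice of 18 months (log2 fold change 3.69 ± 0.93, edgeR adjusted p = 0.0769). Tac1 had 4.41, 6.88 and 4.27 CPM at 22 months, against 2.91, 0.290, 0.539 and 0.969 CPM at 18 months (2.79 ± 0.93, adjusted p = 0.136). Rgs9 had 6.15, 5.52 and 5.07 CPM at 22 months, against 2.91, 3.05, 4.31 and 3.78 CPM at 18 months (0.62 ± 0.28, adjusted p = 0.275). The groups did not overlap for these 3 genes and for Penk, 4 of 7 tested, while 15.1% of all genes did not overlap and 8.93% were higher without overlap. None of the 4 passed, in a comparison that called 0.157% of all genes. Drd2 and Tac1 passed when genes of low counts were kept (adjusted p = 0.00743 and 0.0336) and when the 2 groups were fitted alone (adjusted p = 1.75e-06 and 3.76e-05), all by edgeR.

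Markers of other tissue differed between the same cerebellum libraries. The summed thalamic list was 285 to 304 CPM in PBS mice of 22 months and 193 to 210 CPM in PBS mice of 18 months. The cholinergic list was 3.18 to 9.35 CPM at 22 months and 0.290 to 0.971 CPM at 18 months, the choroid plexus list 1853 to 2422 CPM at 22 months and 170 to 1994 CPM at 18 months, and the cerebellar list 5017 to 5194 CPM at 22 months and 5334 to 5863 CPM at 18 months. With the further striatal covariate the changes of Drd2 and Tac1 were 1.02 and 0.0041. Tcf7l2 was in its higher range in 3 of 3 PBS mice of 22 months, in 0 of 4 PBS mice of 18 months and in 2 of 5 plasma mice of 18 months. The part of these markers in the result was not tested. Drd2 and Tac1 also had higher means in plasma against PBS at 18 months, which shares the PBS mice (Drd2 2.45 ± 1.03 and Tac1 2.10 ± 0.95, neither called by edgeR, as 0% of all genes were). In the comparison of naive mice of 18 months with those of 2 months, which called 2.39% of all genes in cerebellum, none of the 7 genes passed. Among the further striatal genes Syndig1l did (0.65 ± 0.18, edgeR adjusted p = 0.0395), and among the signalling genes Pde4b, a phosphodiesterase (-0.28 ± 0.06, adjusted p = 0.0113).

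In the long treatment, Drd1, which did not pass the filter on low counts in cerebellum, had 0.790, 1.15 and 0.532 CPM in long plasma mice (15 counts at most), against 0.204 to 0.478 CPM in 3 long PBS mice and 0 CPM in the other (2 counts at most). The groups did not overlap, as for 6.01% of the genes that passed the filter. The changes of the 7 tested genes lay between -0.22 and 0.74 for long plasma against long PBS, between -0.87 and 0.52 for plasma against PBS at 22 months, between -2.37 and 0.13 for PBS against naive mice of 18 months and between -0.13 and 0.49 for naive mice of 18 against 2 months. None of these was called by edgeR.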

How the data were processed

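Bulk mRNA was sequenced from 96 libraries of cerebellum, cortex and hippocampus. RNA came from RNeasy columns and was turned into cDNA by Smart-Seq2 and tagmented with Nextera XT, per the labels' protocols. The libraries are unstranded, so reads of a gene and of an overlapping antisense gene cannot be told apart. Per the submitters' processing notes, the authors used Trim Galore 0.3.7, STAR 2.5.3a and DESeq2 with GRCm38; the counting tool is not given in the sources used here. The authors deposited raw counts, 1 row for each gene symbol, and 0 columns were left unmatched to a sample. Groups and animals came from the labels.

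Counts were fitted in R 4.3.3 with edgeR 4.0.16 (TMM factors, filterByExpr with a minimum count of 10 and a minimum total of 15, quasi-likelihood test, 1 coefficient per group), and Benjamini-Hochberg adjustment ran over every gene tested, with calls at an adjusted p under 0.05. Each region was fitted with all 29 libraries of the first experiment, regions were compared over 87 libraries, the second experiment was fitted alone with 9 libraries, and 18 hippocampus libraries of 18 months were fitted with the experiment as a covariate. The test was tried on simulated counts. Correlations used deviations of log2 CPM (prior count 2) from group means with 100000 permutations within groups. Alternatives were DESeq2 1.42.0, limma-voom with quality weights (limma 3.58.1), other size factors, no filter on low counts, the compared groups alone, each library or mouse group left out, libraries under 2500000 counts left out, mice with the title number shared by plasma and PBS at 18 months left out, the mean deviation of the further striatal genes as a covariate, and the mouse as a replicate block. Leaving out libraries of low own-region markers was chosen after seeing the data.

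The 8 genes, the gene lists and the tests were chosen with earlier results of these data known. Named genes were the 8, the 10 genes most like their mean deviation in cortex and in hippocampus, up to 4 called genes per list by size of change and the first gene of each list. Not every gene that the rule allows is reported here, and counts and lists include those left out. Animals pair the regions by the labels, and the median r of the 8 genes between cortex and hippocampus of 1 mouse was 0.202. Depth was 851288 to 23768385 counts per library, with 7 libraries under 2500000. Without molecular identifiers, intervals between libraries include amplification noise. With 1 library per mouse and region, p-values rest on the spread between libraries, in which mouse, dissection and preparation cannot be told apart. The main fit between regions had no term for the mouse, although each mouse gave all regions.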

Additional observations from a re-analysis of the deposited data

Results flagged for a closer look

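Single mice stood apart from their group in 16 of 112 tests of a gene in a group of 4 or 5 libraries, by Dixon's ratio of the gap to the range. Chance flags about 1 in 20 groups, and the 8 genes share libraries, so the 16 are not independent.

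In cortex the library of PBS at 18 months replicate 2 was the highest of 4 for all 8 genes and stood apart for 5. It had 51.9 CPM of Drd2 (next mouse 9.84 CPM), 77.8 CPM of Adora2a (17.1 CPM), 49.4 CPM of Tac1 (18.6 CPM), 323 CPM of Penk (90.3 CPM) and 247 CPM of Pde10a (81.0 CPM). The cerebellum of the same mouse had the lowest Penk of its group, at 79.6 CPM (next 107 CPM).

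In hippocampus, long PBS replicate 24 was the highest of 4 for Drd1 at 34.6 CPM (next 9.94 CPM), Drd2 at 15.1 CPM (2.81 CPM), Adora2a at 23.2 CPM (3.15 CPM) and Penk at 317 CPM (40.1 CPM). PBS at 18 months replicate 5 was the highest for Drd2 at 8.06 CPM (3.02 CPM) and Penk at 132 CPM (46.5 CPM). Naive at 2 months replicate 20 was the highest for Tac1 at 22.0 CPM (11.7 CPM) and Penk at 80.4 CPM (36.7 CPM). Of the plasma mice at 18 months, replicate 7 had the highest Ppp1r1b at 89.5 CPM (51.5 CPM) and replicate 4 the lowest Penk at 21.7 CPM (31.5 CPM).

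No gene was flagged for a difference between regions: of 144 interaction tests of the 8 genes over 18 contrasts in edgeR, 0 passed after adjustment over all genes.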

How the results depend on the processing

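Among alternative values of the log2 fold changes, 452 kept direction and side of the threshold, 6 passed where the reported value had not, 11 no longer passed and 1 changed sign. That 1 is Penk in hippocampus of long plasma against long PBS, at 0.24 without long PBS replicate 24 (-1.84 to 0.24 over the libraries left out, -1.51 with all); the 11 are Adora2a between hippocampus and cerebellum (0.35 to 0.75). The number of the 8 genes called in cerebellum between PBS mice of 22 and 18 months was 2 with no filter on low counts and 2 with the compared groups alone, against 0; DESeq2 gave these genes no adjusted p. A gene with no adjusted p was counted as not called. With each library left out in turn, 0 of the 8 genes were called in all 156 such fits within a region. These include the fits of the second experiment and of both experiments together. Without libraries of low own-region markers the median r of the 28 pairs in hippocampus was 0.275 and that between cortex and hippocampus of 1 mouse -0.0574. With the mouse as a replicate block, 8, 8 and 6 of the 8 genes were called for cortex against hippocampus, cortex against cerebellum and hippocampus against cerebellum (8, 8 and 7 without it), and the block changed no other call.

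Counts over all genes moved more. In cerebellum, PBS at 22 against 18 months called 27 genes, and 15 with other size factors, 312 with no filter, 120 with DESeq2, 292 with limma-voom, 1 without shallow libraries, 7 with the covariate, 483 with the groups alone and 1 to 247 without 1 library; naive age called 411, 678 with limma-voom and 194 to 350 without 1 library. In cortex, naive age called 21, and 32 (DESeq2), 13 (limma-voom), 13 (no shallow libraries), 13 (no libraries of low own-region markers), 5 (groups alone) and 3 to 19; PBS age called 1, and 10 (no filter), 49 (DESeq2), 6 (limma-voom), 0 (no shallow libraries), 5 (no low-marker libraries), 0 (groups alone) and 0 to 5. In hippocampus, naive age called 13, and 24 (DESeq2), 8 (no shallow libraries), 6 (covariate), 0 (groups alone) and 2 to 9; PBS age called 0, and 1 (DESeq2), 24 (limma-voom) and 15 (groups alone); PBS against naive called 0, and 15 with the groups alone. Plasma against PBS called 0, and with DESeq2 1 at 22 months, 21 in the second experiment and 59 in both (1 with limma-voom, 0 to 8 without 1 library); in cerebellum at 22 months the groups alone gave 3. The causes were not tested. Groups of 3 to 5 mice and the wide spread of the 8 genes limit what these tests can show.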

Other observations

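In hippocampus, Ttr, the first marker of the choroid plexus list, was at 1176 to 4609 CPM in 9 of 38 libraries and at 1.67 to 403 CPM in the other 29. Ppp1r1b was at 56.5 to 117 CPM in the 9 libraries and at 40.1 to 175 CPM in the 29, the highest being long PBS replicate 24. These sets of libraries are set apart by Ttr and are not groups of the study, and no test was run between them.

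In cerebellum, Slc17a6, the vesicular glutamate transporter of thalamic and other subcortical neurons, was at 21.7 to 70.4 CPM in the 14 libraries of higher Tcf7l2 and at 8.88 to 27.0 CPM in the other 15, a gene chosen after its values were seen. Libraries of higher Tcf7l2 were 3 of 3 long plasma, 2 of 4 long PBS, 2 of 3 plasma and 3 of 3 PBS mice of 22 months, 2 of 5 plasma and 0 of 4 PBS mice of 18 months, 1 of 3 naive mice of 18 months and 1 of 4 of 2 months.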
